A study of Mus musculus with 25 samples.

Results

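A list of 41 genes of the lysosome was followed across CD11b+ cells sorted from mouse kidneys by their surface Ly6C: cathepsins and legumain (10 genes), glycosidases with a sulfatase (10), lipid handling proteins, cofactors and other hydrolases (8), membrane proteins (7), subunits of the proton pump (5) and the regulator Tfeb. A probe set that names the gene alone was found for 39 members, and the probe table used here listed none for Cd63 and Atp6v0c. A member was tested when it was called present on at least 2 arrays of one group, which 38 members met, of 8341 genes tested among 18194 with a probe set. Ctsk, an osteoclast collagenase, was called present on 0 of the 21 arrays and was not tested. Where a gene had several probe sets, the one of highest mean stood for it.

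All animals were C57BL/6 male mice of 8 to 10 weeks, with no genetic change named in the labels. Bilateral renal ischemia lasted 28 min and was followed by 4 h, 24 h or 9 days of reperfusion, and sham surgery was the same without the clamping. Every animal received saline and buprenorphine per the labels' protocols. The 8 groups were the sham High, Intermediate and Low Ly6C gates (2 arrays each), the 4 h High and Intermediate gates, the 24 h Intermediate gate, and the 9 day Intermediate and Low gates (3 arrays each). The labels number the animals, so replicates are separate animals, and arrays with the same number at the same time are different gates of 1 animal. A further 3 High arrays that share the label sham 58, which may or may not be separate animals, and 1 array of reference RNA stayed outside the tests. The sort gave picogram amounts of RNA that were amplified before hybridisation, and in such bulk samples fewer cells of a type and less RNA per cell cannot be told apart. Of the sort markers only Itgam, which encodes CD11b, had a probe set of its own, and it was called present on 11 of the 21 arrays, with log2 values from 2.14 to 5.52.

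Lysosomes digest material taken up by phagocytosis and endocytosis as well as the cell's own organelles, and macrophages are rich in them. Proton pumps in the membrane acidify the lumen, where cathepsins cut proteins, glycosidases trim sugar chains, and lipases with their cofactors break down lipids. Membrane glycoproteins line the organelle and form its channels. TFEB, a transcription factor, is known to bind the E-box letters CACGTG in the promoters of many of these genes, within a longer element called CLEAR.

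Promoter windows of 300 bases, 250 before to 50 after the start of the gene, were taken from RefSeq (GRCm38.p6) to show those letters beside the members' values. The table held 42 windows for 35 of the 41 members. CACGTG, which reads the same on both strands, stood in at least 1 window of 12 of the 35 members (34.3%), against 12.6% of the 6808 genes tested that have a window. The longer TCACGTGA, which contains it and also reads the same on both strands, stood in 5 members (14.3%) and in 2.38% of those genes. The windows below belong to members that the results turn on or are examples of several matches, and capitals mark CACGTG. Tpp1 (chr7:105752186-105752485, minus strand) is shown because it passed the test between groups, and its window holds no match. Atp6v1a (chr16:44139210-44139509, minus strand) passed the test over all groups, and its match is part of TCACGTGA. Ctsd (chr7:142387778-142388077, minus strand), Mcoln1 (chr8:3500269-3500568, plus strand) and Lamp1 (chr8:13158911-13159210, plus strand) are shown for their number of matches, which is 2, 2 and 4. Ctsa and Gla, not shown, also hold 2 each. A match describes the letters only, and its absence says only that they are not in this window.
Tpp1: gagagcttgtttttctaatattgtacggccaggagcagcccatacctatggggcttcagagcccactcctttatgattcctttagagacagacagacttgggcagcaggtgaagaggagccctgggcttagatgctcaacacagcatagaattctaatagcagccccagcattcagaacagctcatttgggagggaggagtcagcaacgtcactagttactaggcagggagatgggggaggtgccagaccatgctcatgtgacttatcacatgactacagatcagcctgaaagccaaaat
Atp6v1a: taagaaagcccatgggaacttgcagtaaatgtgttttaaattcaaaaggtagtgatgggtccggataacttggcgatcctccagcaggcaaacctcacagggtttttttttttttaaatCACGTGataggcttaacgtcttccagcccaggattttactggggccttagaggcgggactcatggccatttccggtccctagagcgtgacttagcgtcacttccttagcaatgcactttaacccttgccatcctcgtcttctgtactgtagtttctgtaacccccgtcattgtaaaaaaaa
Ctsd: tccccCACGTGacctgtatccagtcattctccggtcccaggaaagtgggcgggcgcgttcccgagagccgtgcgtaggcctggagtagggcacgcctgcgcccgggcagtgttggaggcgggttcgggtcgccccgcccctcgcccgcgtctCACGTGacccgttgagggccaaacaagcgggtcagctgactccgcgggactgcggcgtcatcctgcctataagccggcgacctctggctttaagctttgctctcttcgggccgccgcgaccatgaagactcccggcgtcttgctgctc
Mcoln1: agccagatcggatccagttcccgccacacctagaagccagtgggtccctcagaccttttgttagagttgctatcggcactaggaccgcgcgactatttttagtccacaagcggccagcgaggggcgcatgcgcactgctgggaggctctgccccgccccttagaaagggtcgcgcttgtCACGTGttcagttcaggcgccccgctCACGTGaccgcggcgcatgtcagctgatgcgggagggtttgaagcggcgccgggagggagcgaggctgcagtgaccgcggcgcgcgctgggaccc
Lamp1: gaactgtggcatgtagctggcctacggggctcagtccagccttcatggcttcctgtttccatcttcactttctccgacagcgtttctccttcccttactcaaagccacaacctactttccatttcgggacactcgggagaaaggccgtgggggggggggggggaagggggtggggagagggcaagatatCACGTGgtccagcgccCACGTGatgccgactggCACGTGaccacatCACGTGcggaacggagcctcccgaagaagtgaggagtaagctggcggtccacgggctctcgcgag

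The yield of an array, meaning the part of its 45101 probe sets with a present call, ran from 1.99% to 40.0% over the 21 arrays and bears on every value below. It was under 5% on 3 arrays, which were sham High replicate 1 (1.99%), 9 day Intermediate replicate 8 (3.29%) and 9 day Intermediate replicate 13 (4.67%). The other 18 are called usable below, a word that rests on yield alone. The ratio of 3' to 5' probe set signal, a measure of RNA quality, was 431 for Gapdh and 183 for Actb on sham Intermediate replicate 1. It was 298 and 13.4 on sham High replicate 1, and 3.93 and 2.83 on sham Intermediate replicate 2. For Gapdh it was 28.3 on sham High replicate 2 and 19.7 on 4 h High replicate 32. For Actb it was 51.8 and 22.1 on 9 day Intermediate replicates 8 and 13. The part of RNA quality in the comparisons, those with sham Intermediate above all, was not tested. By group the mean yield was 7.42% in sham High, 19.0% in sham Intermediate, 33.7% in sham Low, 17.3% in 4 h High, 14.0% in 4 h Intermediate, 13.6% in 24 h Intermediate, 11.1% in 9 day Intermediate and 31.8% in 9 day Low. The Low gates at both times therefore had the highest mean yields. The number of arrays limits the precision of every comparison. Each background below is a share of all genes tested with every array kept. Counts of members called under other settings, with arrays left out or weighted, come without such a share. Those counts therefore do not set the members apart from other genes.

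Over the 38 tested members the mean log2 value was 9.64 ± 0.32 (SD, n = 3) in 9 day Low and 9.13 ± 0.16 (SD, n = 2) in sham Low. It was 8.22 ± 0.09 (n = 2) in sham Intermediate, 8.17 ± 0.36 (n = 3) in 4 h High, 7.94 ± 0.68 (n = 3) in 24 h Intermediate and 7.66 ± 0.26 (n = 3) in 4 h Intermediate. In 9 day Intermediate it was 6.79 ± 2.34 (n = 3) and in sham High 6.38 ± 2.33 (n = 2). The SDs of these last groups come from the arrays of low yield: the 9 day Intermediate arrays lay at 5.14, 9.47 and 5.75, and the sham High arrays at 4.73 and 8.03. The 9 day Low arrays, at 9.37, 9.55 and 9.99, did not overlap the sham Low arrays, at 9.24 and 9.02. No test was made of this mean, since the members were chosen with results of these data known.

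Among the 18 usable arrays of the model the members stood highest against the rest of the genes on the 9 day ones. The mean over the members minus the mean over all genes tested on the same array was 2.90, 2.89 and 3.11 log2 units on the 9 day Low arrays and 2.96 on 9 day Intermediate replicate 9. On the other 14 arrays with a yield above 5% it ran from 1.52 to 2.37, so these 4 arrays of both gates lay above all 14. The 3 sham 58 High arrays, outside the model, lay between these sets at 2.44, 2.68 and 2.87, so a high difference was not particular to 9 days. With probe set means the sham 58 arrays reached 2.80 and the lowest 9 day array lay at 2.68, and with no filter they reached 4.74 against 4.55, so there they overlapped. This contrast was chosen after its values were seen and has no test. The sham Low arrays, with yields of 40.0% and 27.4%, lay at 2.12 and 2.35, and the 9 day arrays at 25.3% and 25.5% lay at 2.90 and 2.96; the part of yield was not tested. With medians in place of means the order was lost, and 24 h Intermediate replicate 8 then had the highest difference, at 4.68 against 2.97 to 3.47 on the 4 arrays. The mean of 9 resident macrophage markers was 10.40 to 11.99 on the 4 arrays and 7.23 to 10.94 on the 14. The mean of 10 proximal tubule markers was 3.56 to 4.49 on the 4 arrays and 4.77 to 9.84 on the 14, and the part of either in the difference was not tested.

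**Figure D1:**
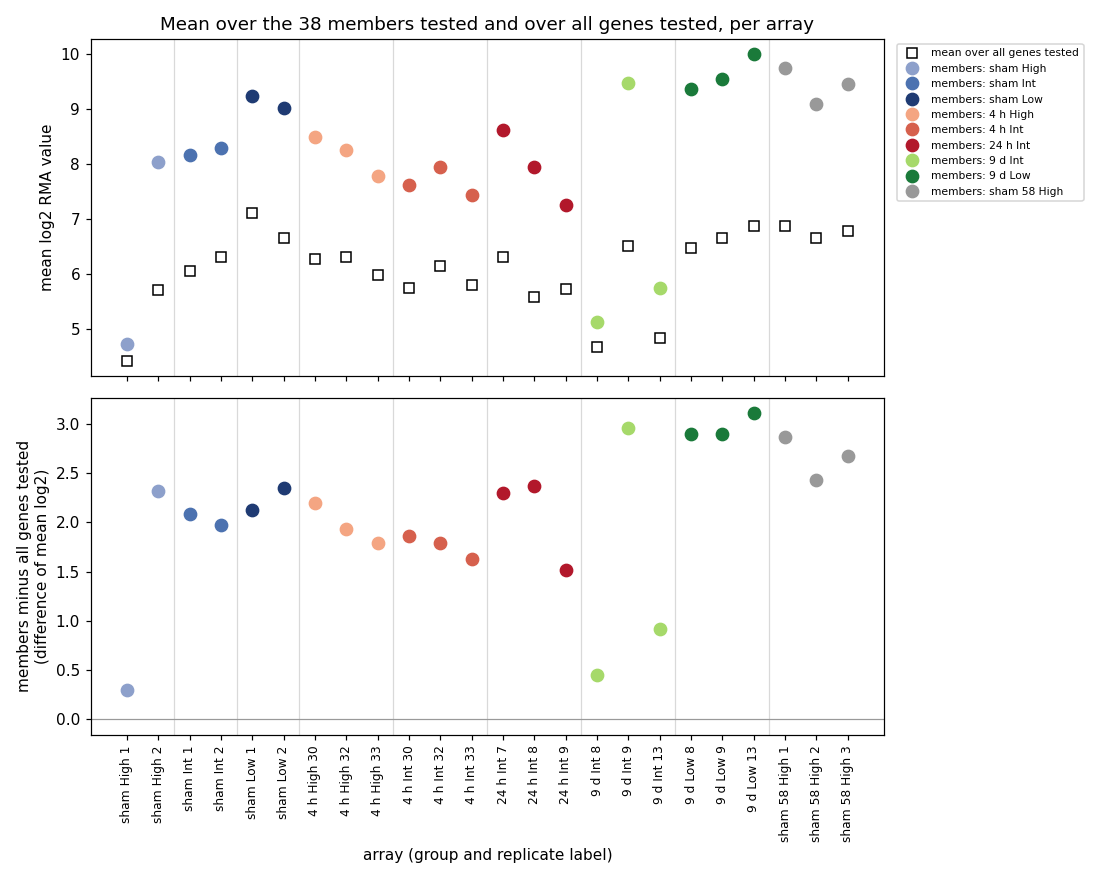
Mean log2 RMA value per array (upper panel) over the 38 members tested, coloured by group, and over all genes tested (open squares), and the difference of these means (lower panel), for the 21 arrays of the model and the 3 sham 58 High arrays. The 4 usable 9 day arrays lie at 2.89 to 3.11 in the lower panel and the 3 arrays of low yield at 0.30 to 0.91.

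A core of the list was detected in every usable sample. Of the 38 tested members 14 were called present on all 18 arrays with a yield above 5%, and 18 (47.4%) on at least 16 of them, against 16.6% of the genes tested. The 14 were Ctsb, Ctsd, Ctsh, Ctsl, Ctss, Lamp1, Lamp2, Cd68, Laptm5, Fuca1, Npc2, Psap, Grn and Atp6ap1. Of the 39 members with a probe set 10 were called present on 9 or fewer of the 18 arrays, 4 of them from the glycosidases with a sulfatase. No share of all genes was taken for this count, so it does not set the members apart. The sulfatase Sgsh was called present on 3 arrays, and the glycosidases Gaa on 7, Glb1 on 8 and Gla on 9. On single arrays the number of members called present ran from 20 to 38 over the 18 arrays, and it was 1, 8 and 10 on the 3 of low yield. Over the 14 core members the same within-array difference, taken against the 687 genes called present on all 18 arrays, was 0.61 to 1.09 on the 4 usable 9 day arrays and -0.75 to 0.15 on the other 14. The sham 58 arrays lay at 0.08 to 0.78 and so overlapped the 9 day arrays.

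**Figure D2:**
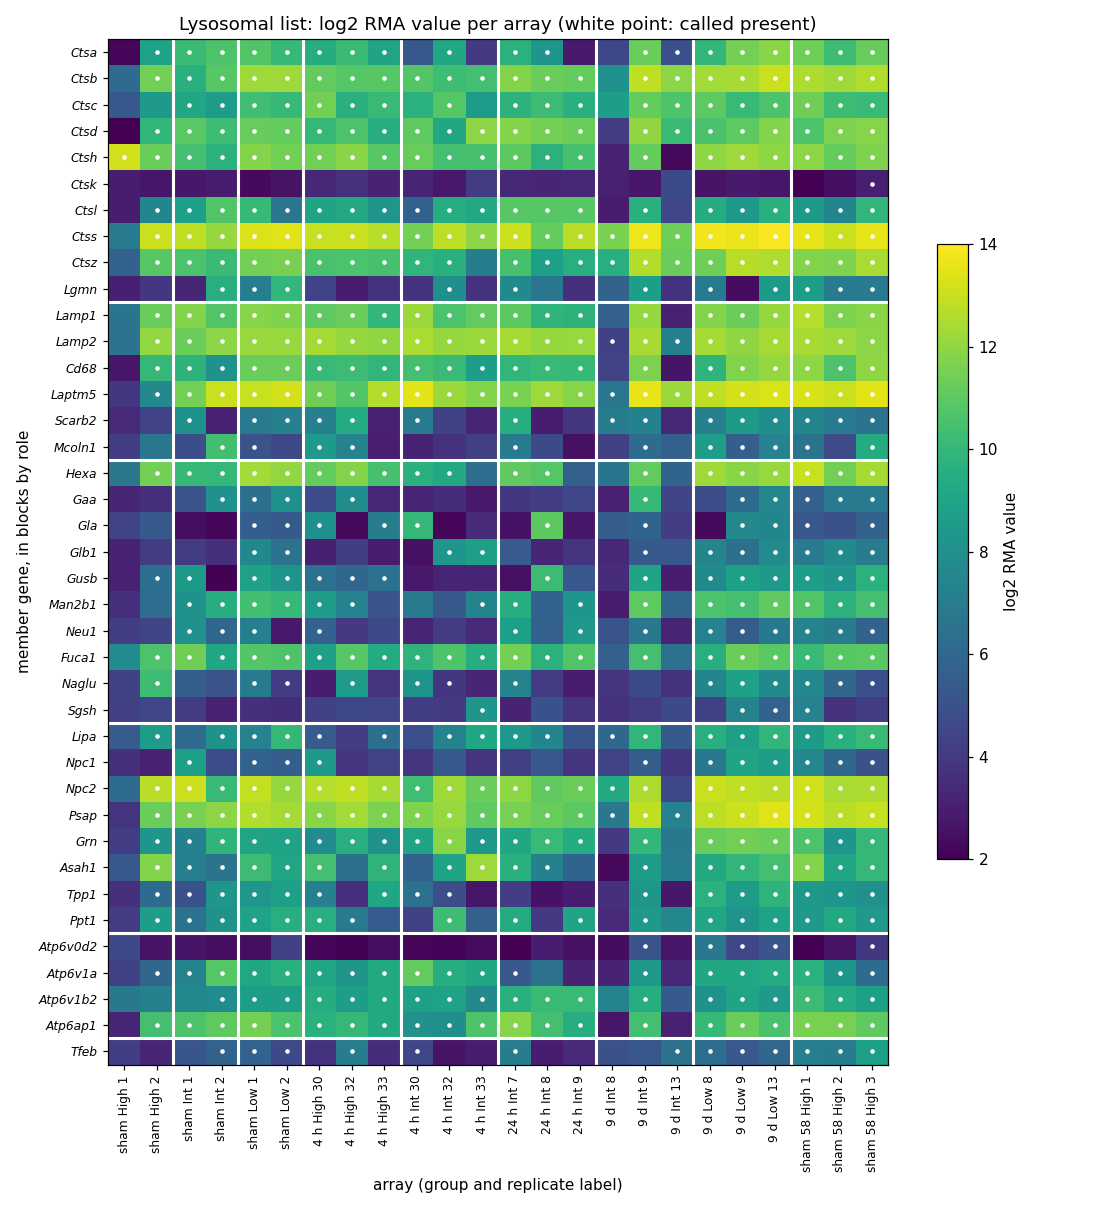
Log2 RMA value (colour) of the 39 members with a probe set (rows, in blocks by role) on each array (columns, by group); a white point marks a present call. The 14 core members carry a point on all 18 arrays above 5% yield, and sham High replicate 1 has a point for Ctsh alone.

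Among the cathepsins, Ctss and Ctsb were present on all usable arrays and lay high on the 9 day ones. Ctss, a cysteine protease that processes antigen for MHC class II, lay at 13.76, 13.67 and 13.94 on the 9 day Low arrays and at 13.71 on 9 day Intermediate replicate 9, and at no more than 13.42 on the other 14 usable arrays. Ctsb, another cysteine protease, lay at 12.32, 12.41, 13.05 and 12.85 on the same 4 arrays and at no more than 12.26 on the 14. The groups therefore did not overlap on these arrays, but the margins were small, and the 9 day Low minus 24 h Intermediate differences of 1.47 ± 1.13 (SE) for Ctss and 1.20 ± 1.18 for Ctsb did not pass limma's test (adjusted p = 0.52 and 0.623). On the sham 58 High arrays, outside the model, Ctsb lay at 12.53, 12.29 and 12.58 and so overlapped the 9 day arrays. Ctss lay there at 13.57, 13.02 and 13.55, below the 9 day arrays. Ctss and Ctsb, with Psap, were singled out after their values were seen. Ctsl, a broad cysteine protease, showed another order, with 10.86, 10.88 and 10.87 on the 24 h Intermediate arrays against 9.43, 8.49 and 9.60 in 9 day Low. The 24 h Intermediate arrays also lay above the 4 h Intermediate arrays, at 5.72, 9.47 and 9.24, by 2.73 ± 1.53 (adjusted p = 0.802). Ctsl was thus the cathepsin with its highest group mean at 24 h, together with Ctsd, an aspartic protease, whose 24 h arrays lay at 11.77, 11.51 and 11.32 and overlapped 4 h Intermediate and 9 day Low. Sham Intermediate replicate 2 came close to the 24 h arrays in Ctsl, at 10.72, and replicate 1 lay at 8.77. A second Ctsl probe set, present on 6 arrays, gave 0.62 ± 1.33 for 9 day minus 24 h Intermediate, where the first gave -5.17.

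Ctsh, an aminopeptidase, was the only member called present on sham High replicate 1, at 13.18, and was called absent on 9 day Intermediate replicates 8 and 13, at 3.13 and 2.27. On the 18 usable arrays it stayed between 9.71 and 12.26. Ctsc, which activates serine proteases of granules, lay at 11.44, 9.64 and 10.15 in 4 h High and at 5.32 and 8.44, both called absent, in sham High. That difference, at least 11.6-fold on the scale of the deposited log2 values because no sham High array was called present, had an adjusted p of 0.139 in limma, and the mean over all Ctsc probe sets turned it to -0.43. Here and below, "at least" sets the brighter group against the higher of the dim probe set's own value and the lowest present value of its array. It refers to the dim side only, takes no account of the SE or of other probe sets, and is no lower confidence limit. That lowest present value was 1.18 to 2.34 on the 21 arrays, and in every case given in this text the dim values lay above it. Each "at least" value given is therefore the plain ratio of the group means, and no bound on it. Lgmn, an asparaginyl endopeptidase, was called present on 8 of 21 arrays and ranged from 2.41 to 9.95 over the 18 usable ones.

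Detection varied among the glycosidases with the sulfatase, from Fuca1 on all usable arrays to the sulfatase Sgsh on 3. Hexa, a subunit of beta-hexosaminidase, lay at 12.28, 11.88 and 12.13 in 9 day Low and at 12.33 and 12.06 in sham Low, while the 24 h Intermediate arrays lay at 11.09, 10.83 and 5.66. The Low gates were thus tight and the 24 h arrays were not. Man2b1, a lysosomal alpha-mannosidase, lay at 10.58, 10.48 and 11.09 in 9 day Low, 10.38 and 10.04 in sham Low, and 8.65, 7.31 and 5.18 in 4 h High. The 9 day Low minus 4 h High difference was 3.67 ± 1.55 (adjusted p = 0.253), and the groups did not overlap. Glb1, the lysosomal beta-galactosidase, was called present in both Low gates, at 7.46, 6.41 and 7.78 at 9 days and 7.60 and 6.51 in sham, and on no 4 h High, 24 h Intermediate or sham Intermediate array. Against 4 h High its 9 day Low level was at least 14.1-fold higher (3.82 ± 1.25, adjusted p = 0.129), and against 24 h Intermediate at least 8.24-fold higher (adjusted p = 0.188). It was also called present on the 4 h Intermediate arrays 32 and 33, at 8.26 and 8.82, but not on replicate 30, at 2.55.

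Neu1, a sialidase, lay at 8.79, 5.67 and 8.43 in 24 h Intermediate and at 3.26, 4.10 and 3.45, all called absent, in 4 h Intermediate. The difference of at least 16.3-fold (4.03 ± 1.18) did not pass limma's test (adjusted p = 0.282). Another probe set of Neu1, called present on 2 arrays, gave 0.28 ± 1.24 for the same comparison. Gusb, beta-glucuronidase, lay at 6.48, 5.95 and 6.50 in 4 h High, all called present, and at 2.82, 3.25 and 3.26, all absent, in 4 h Intermediate (at least 9.18-fold, adjusted p = 0.955). Fuca1, a fucosidase, stayed between 8.80 and 11.49 on all 18 usable arrays. Gaa, acid alpha-glucosidase, had 1 value far from the rest, 10.06 on 9 day Intermediate replicate 9, and lay at 4.83, 6.21 and 7.56 in 9 day Low. Sgsh, the sulfatase of heparan sulfate, was called present on 2 of the 3 9 day Low arrays, at 7.38 and 5.75, and on 4 h Intermediate replicate 33, at 8.28.

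Tpp1, a tripeptidyl peptidase whose loss causes a neuronal lipofuscinosis, was the only member to pass the test between groups. It lay at 9.65, 8.61 and 9.82 on the 9 day Low arrays, all called present, and at 4.17, 2.60 and 2.97 on the 24 h Intermediate arrays, of which none was called present and 1 was called marginal. The sham Low arrays lay at 8.29 and 8.79, close to 9 day Low, and the 4 h Intermediate arrays at 6.51, 4.84 and 2.72. Its level in 9 day Low was at least 69.2-fold that in 24 h Intermediate (6.11 ± 1.52 log2 units, limma adjusted p = 0.0331, higher on 3 of 3 arrays). The call was lost when each array was centred on its median (4.47, adjusted p = 0.0733), when all genes with a probe set were tested (adjusted p = 0.0595), when yield entered the fit (3.41, adjusted p = 0.407), and when any 1 of the 6 arrays was left out (5.79 to 6.58, adjusted p = 0.0576 to 0.104). A second Tpp1 probe set, present on 8 arrays, gave 2.33 ± 1.20. The call of the first held with the 3 arrays of low yield left out.

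Psap, the precursor of the saposins that assist glycolipid breakdown, lay at 12.79, 13.09 and 13.41 in 9 day Low and 12.83 on 9 day Intermediate replicate 9, and at no more than 12.61 on the other 14 usable arrays. On the sham 58 High arrays, outside the model, Psap lay at 13.22, 12.78 and 12.96, so it overlapped the 9 day arrays. With the arrays of low yield left out of the fit it was called higher in 9 day Low than in 24 h Intermediate, where it lay at 11.56, 11.19 and 10.96; with all arrays the difference was 1.86 ± 1.52 (adjusted p = 0.548). Npc2, which carries cholesterol inside the lysosome, lay between 10.14 and 13.09 on all 18 usable arrays. Its partner Npc1, a membrane protein, lay at 6.87, 9.00 and 8.70 in 9 day Low and at 4.26, 5.24 and 3.80, all called absent, in 24 h Intermediate (at least 13.5-fold, adjusted p = 0.083). Grn, the precursor of the granulins, lay at 11.30, 11.46 and 11.28 in 9 day Low and at 9.01 and 8.91 in sham Low, without overlap (2.38 ± 1.50, adjusted p = 0.70). Lipa, the acid lipase of cholesteryl esters, lay at 9.56, 8.76 and 9.92 in 9 day Low and at 5.45, 4.20 and 6.34 in 4 h High (4.08 ± 1.36, adjusted p = 0.136). Its other probe sets, present on 13 and 9 arrays, gave 1.47 ± 1.75 and 3.81 ± 1.35 for the same comparison. Asah1, an acid ceramidase, and Ppt1, a palmitoyl thioesterase, ranged from 5.72 to 12.25 and from 3.98 to 10.29 over the usable arrays with overlapping groups at 24 h and 9 days.

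The membrane proteins included the steadiest member. Lamp2, a major glycoprotein of the lysosomal membrane, stayed between 11.30 and 12.47 on all 18 usable arrays, a range of 1.16 log2 units, with a 9 day Low minus 24 h Intermediate difference of 0.03 ± 1.49. On the 3 arrays of low yield it lay at 6.58, 4.33 and 7.25, far below every usable array. Lamp1, its relative, stayed between 9.75 and 12.18 on the usable arrays. Cd68, a scavenger receptor family member used as a macrophage marker, lay at 9.79, 11.74 and 12.11 in 9 day Low and 9.92, 10.15 and 10.02 in 24 h Intermediate, which overlapped. Laptm5, a lysosomal membrane protein of blood cells, lay at 11.39, 10.77 and 12.60 in 4 h High and at 3.95 and 7.65 in sham High (5.78 ± 1.50, adjusted p = 0.11). Those sham High arrays were 1 of low yield and 1 with a yield of 12.9%. The other Laptm5 probe sets with present calls, on 18, 17 and 9 arrays, gave 2.29 ± 1.73, 6.42 ± 1.50 and -0.14 ± 0.57 for 4 h High minus sham High. Mcoln1, a cation channel, and Scarb2, a receptor that carries beta-glucocerebrosidase, were called present on 9 and 12 of 21 arrays.

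Atp6v1a, the catalytic subunit of the proton pump, was the only member called in the moderated F test over the 8 groups (F = 5.51, adjusted p = 0.0498; background 3.94% of genes). It lay at 11.11, 9.46 and 9.17 in 4 h Intermediate, at 5.33, 6.47 and 3.21 in 24 h Intermediate, where only the first was called present, and at 9.18, 9.20 and 9.36 in 9 day Low. The 24 h arrays were thus below 4 h Intermediate and 9 day Low without overlap. They overlapped sham High, at 4.39 and 5.96, and 9 day Intermediate, at 3.17, 8.43 and 3.38, so the low values were not particular to 24 h. The single comparisons did not pass limma's test, with -4.91 ± 1.26 (adjusted p = 0.221) for 24 h minus 4 h Intermediate and 4.24 ± 1.26 (adjusted p = 0.068) for 9 day Low minus 24 h Intermediate. A second probe set, present on 14 arrays, gave -0.86 ± 1.84 and 1.63 ± 1.84 for the same comparisons. The F call was lost in 24 of the 30 alternatives (adjusted p = 0.0514 to 0.14 there). Without 9 day Intermediate replicate 9 the F test called 13 members, a count given without the share of all genes in that fit. By unadjusted p under 0.05 the F test took 10 members, against 22.7% of all genes tested.

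Atp6v1b2, a regulatory subunit, ran the other way at 24 h, with 9.63, 10.16 and 10.08 against 8.85, 8.91 and 7.66 in 4 h Intermediate and 8.15, 9.03 and 8.51 in 9 day Low. The 24 h arrays lay above both groups (1.48 ± 0.83 against 4 h, adjusted p = 0.802). Atp6v0d2, a membrane subunit known for its place in osteoclasts and in macrophages, was called present on only 4 of the 21 arrays, and these were the 4 usable 9 day arrays. It passed the detection filter only through 9 day Low, so its higher values in that group are not separate from the filter. It lay at 6.74, 4.57 and 5.18 in 9 day Low, 5.13 on 9 day Intermediate replicate 9, and from 1.93 to 4.66 on the other 17 arrays. The 9 day Low differences were at least 9.66-fold against 4 h High (3.27 ± 0.86, adjusted p = 0.0623), at least 8.06-fold against 24 h Intermediate (adjusted p = 0.0571) and at least 4.33-fold against sham Low (adjusted p = 0.446). Both of the first differences were called with the arrays of low yield left out. A second Atp6v0d2 probe set, present on 3 arrays, gave -0.53 ± 1.31 against 24 h Intermediate and 0.18 ± 1.31 against 4 h High, so the probe sets disagree. Atp6ap1, an accessory subunit, stayed between 7.97 and 11.82 on the usable arrays.

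Tfeb was called present on 10 of 21 arrays. It lay at 6.34, 5.35 and 5.94 in 9 day Low, at 5.78 and 4.64 in sham Low, and at 4.54, 2.64 and 2.91 in 4 h Intermediate, where only the first was called present. None of the 12 comparisons called Tfeb, and its 9 day Low minus 24 h Intermediate difference was 1.39 ± 1.10, with 24 h arrays at 7.09, 2.90 and 3.45.

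**Figure D3:**
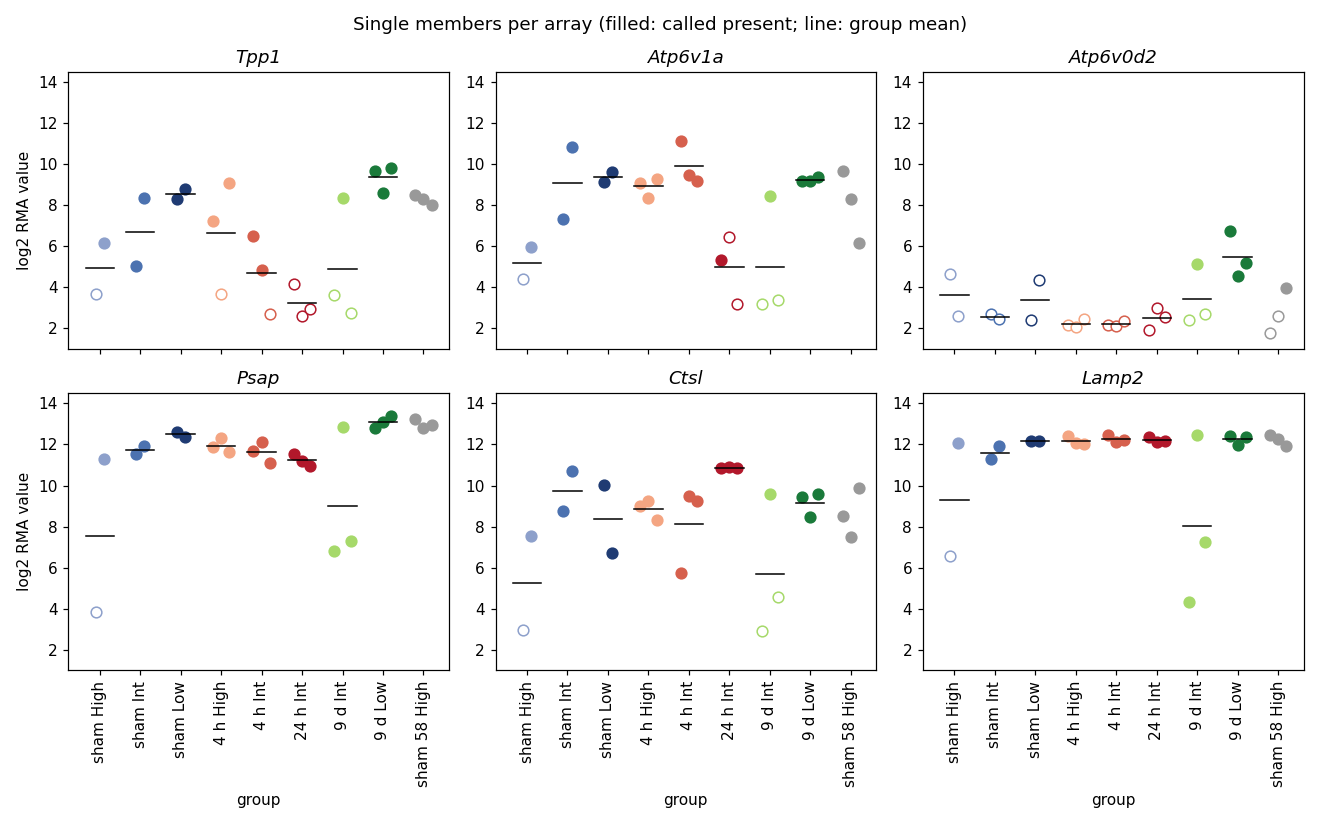
Log2 RMA value of 6 members per array by group; filled points were called present, open points were not, and lines are group means. Tpp1 and Atp6v1a are low in 24 h Intermediate, though not only there, and Ctsl is high there. Atp6v0d2 is filled only on 9 day arrays and 1 sham 58 array, and Lamp2 is level apart from the 3 arrays of low yield.

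The comparison of the late Low gate with the 24 h Intermediate gate held the 1 call. Background was 4.3% of genes called, and 1 of 38 members (Tpp1) was called. Of the members 32 lay higher in 9 day Low and 6 lower, with a median difference of 1.73 against 0.65 over all genes tested. The array medians themselves differed by 1.64 between these groups, and with each array centred on its median 20 members lay higher and 18 lower, with a median of 0.09. The direction of the list here therefore depends on the scaling. All 8 lipid handling members and all 6 membrane proteins lay higher, as did 8 of 10 in the group of glycosidases with a sulfatase, 6 of 9 in that of cathepsins and legumain, and 3 of 4 pump subunits. On the deposited scale, in 20 members every 9 day Low array lay above every 24 h array (background 19% of genes) and in 2, Ctsl and Atp6v1b2, below (background 10.9%). At unadjusted p under 0.05 there were 6 members, all higher, and 19.2% of genes. Without any 1 of the 6 arrays compared 0 members were called, without sham High replicate 1 or 2, 4 h High replicate 30 or 4 h Intermediate replicate 30 there were 2, without 9 day Intermediate replicate 9 there were 3, and without the arrays of low yield 4: Tpp1, Atp6v0d2, Atp6v1a and Psap. With yield in the fit Ctsl was the member called, lower in 9 day Low (-6.01, adjusted p = 0.0376). The 9 day Low arrays carried more macrophage marker signal and less neutrophil and tubule marker signal. Of 9 macrophage markers with a probe set (10 listed) 9 were present on each 9 day Low array, with a summed signal of 176512 to 265622, and 4 to 8 on the 24 h arrays, at 87265 to 128566, where Mertk was never present. Of 9 neutrophil markers (11 listed) 5 to 8 were present in 9 day Low, at 38377 to 57589, and 9 in 24 h Intermediate, at 626763 to 2582100. Of 10 tubule markers 1 to 3 were present in 9 day Low, at 1468 to 8714, and 2 to 7 at 24 h, at 46497 to 84318. The part of these cell types, of the yields (31.8% against 13.6%) and of gate against time in the differences was not tested or cannot be told apart in this design.

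**Figure D4:**
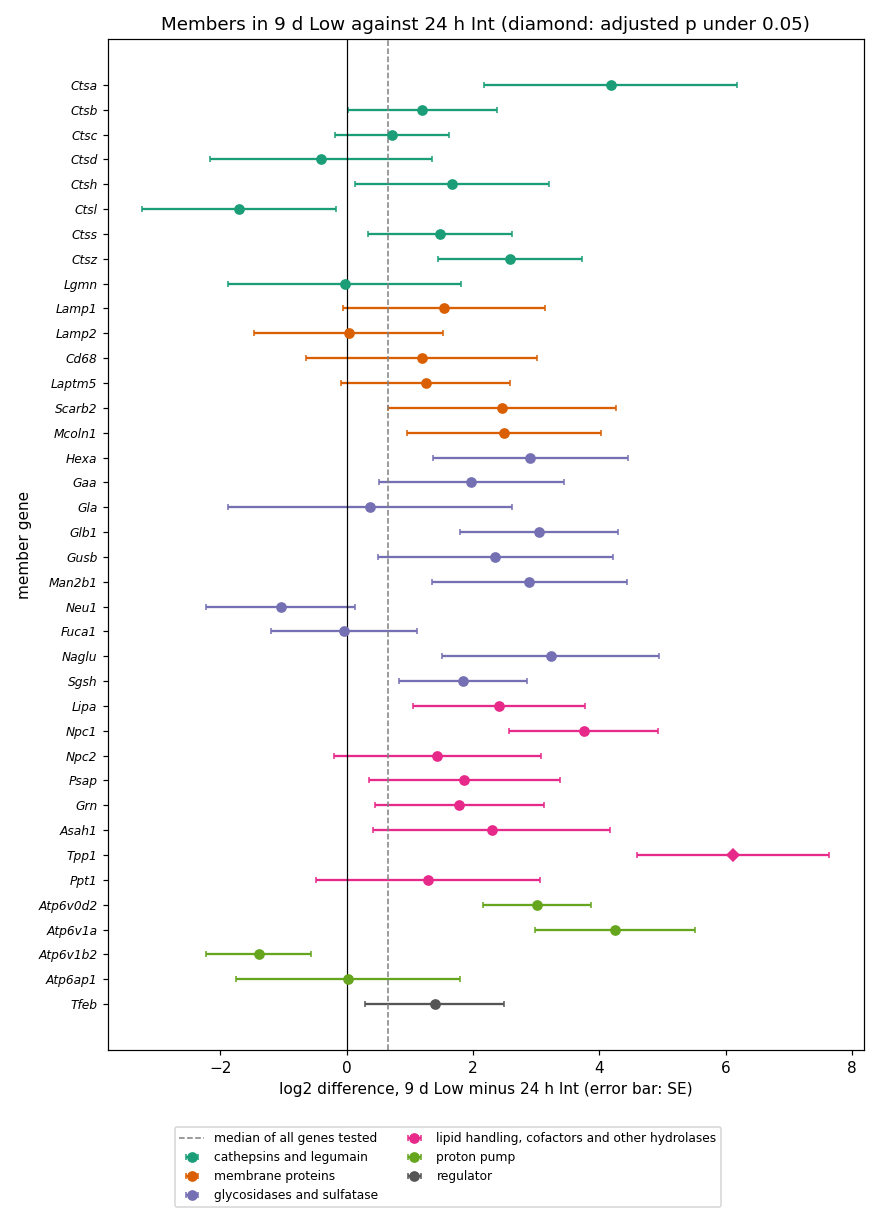
Log2 difference, 9 day Low minus 24 h Intermediate, of each of the 38 members tested, with its SE, coloured by role; the dashed line is the median of all genes tested (0.65). Tpp1, at 6.11, is the only member past the threshold, and 6 members lie left of 0, with Ctsl and Atp6v1b2 the farthest.

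Against the 4 h High gate, 9 day Low had 37 members higher and 1 lower, and the median difference was 1.14, where all genes tested had 0.41. No member was called (background 1.88%), and 6 members, all higher, had an unadjusted p under 0.05, against 15.6% of genes. Groups did not overlap in 15 members, all higher in 9 day Low (background 16.3%), and none lay lower (background 13.1%). The array medians differed by 1.24, and after centring 18 members lay higher and 20 lower, with a median of -0.11. Atp6v0d2, Glb1 and Lipa, given above, had the smallest p. Without sham High replicate 1 or 2, 4 h Intermediate replicate 30 or 9 day Intermediate replicate 9, 1 member was called.

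Within the Low gate, 9 day Low minus sham Low had 26 members higher and 12 lower, with a median of 0.38 over the members and -0.12 over all genes. The array medians differed by -0.25, and after centring 34 members lay higher and 4 lower, with a median of 0.63. No member was called (background 0.995%), and 1 member, Atp6v0d2, had an unadjusted p under 0.05, against 10.5% of genes. In 11 members all 9 day arrays lay above both sham arrays (background 12.4%), and in 0 below (background 18.5%). After Atp6v0d2 the smallest p belonged to Sgsh (at least 4.70-fold, adjusted p = 0.529) and Npc1 (2.47 ± 1.32, adjusted p = 0.57). Sgsh, like Atp6v0d2, passed the detection filter only through 9 day Low, so these 9 day Low differences are not separate from the filter. These groups had similar yields, 31.8% and 33.7%, while the tubule markers differed, with 1 to 3 of 10 present in 9 day Low and 9 or 10 in sham Low. The 3' to 5' ratio for Gapdh was 10.7, 7.78 and 3.00 in 9 day Low and 1.85 and 2.82 in sham Low. For Actb it was 4.06, 3.33 and 2.00 against 1.58 and 1.78, and the part of RNA quality was not tested.

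At 9 days the Intermediate gate lay below the Low gate in 37 of 38 members, and the median difference was -2.81, where all genes tested had -1.24. No member was called (background 0.623%), although 17 members, all lower, had an unadjusted p under 0.05, against 20.4% of genes. Groups did not overlap in 10 members lower in Intermediate (background 18%) and in 0 higher (background 4.39%). After centring, which takes out a shift of -1.58, 29 members lay lower. The smallest p belonged to Ctsh (-6.54 ± 1.53, adjusted p = 0.0575), Atp6v1a (-4.25 ± 1.26, adjusted p = 0.107) and Grn (-4.40 ± 1.34, adjusted p = 0.113). These differences rest on replicates 8 and 13, the arrays of low yield. Replicate 9 had a member mean of 9.47, between the 9 day Low arrays at 9.37 and 9.55. Without the arrays of low yield, the mean over members was thus 9.47 in 9 day Intermediate, from replicate 9 alone, and 9.64 in 9 day Low. With yield in the fit it was 7.82 in 9 day Intermediate and 7.68 in 9 day Low, so the direction of this mean turned. The direction of the list here therefore depends on how yield is handled. Without replicate 9, when the group holds only arrays of low yield, 16 members were called. With limma's array weights 19 were called, but these weights did not follow yield. Replicate 9 had the lowest weight of the 21 arrays (0.28), and replicates 8 and 13 had 1.14 and 1.54. Without sham High replicate 1 or 2, which changes the shared spread, 1 member was called, and without the low yield arrays 0.

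The Intermediate gate was followed from sham to 4 h, 24 h and 9 days. At 4 h the median over members was -0.30 against -0.09 over all genes, no member was called (background 0.216%), and 2 members, both lower, had an unadjusted p under 0.05, against 7.06% of genes. Neu1 was at least 10.9-fold lower at 4 h than in sham Intermediate (adjusted p = 0.525), Mcoln1 at least 14.7-fold lower (adjusted p = 0.657) and Gaa at least 10.4-fold lower (adjusted p = 0.715), each present on no 4 h array. Mcoln1 and Gaa were each called present on only 1 sham Intermediate array, replicate 2, at 10.36 and 8.06, and without it the differences were -1.13 and -1.90. Their other probe sets of most calls gave -0.74 ± 1.38, -0.47 ± 1.03 and -0.01 ± 1.31. At 24 h against sham the median was -0.17 against -0.07, no member was called (background 0.456%), and 2 members had an unadjusted p under 0.05, against 9.63% of genes. These were Atp6v1a (-4.08 ± 1.41, adjusted p = 0.278) and Atp6v1b2 (2.24 ± 0.93, adjusted p = 0.423), the pump subunits that lay apart at 24 h, and Tpp1 followed (at least 10.9-fold lower at 24 h, adjusted p = 0.551; without sham Intermediate replicate 2 the log2 difference moved from -3.45 to -1.79). From 4 h to 24 h the median was 0.26 against -0.01, with no member called (background 0.12%) and 2 at an unadjusted p under 0.05, Atp6v1a and Neu1, against 7.23% of genes. At 9 days no member was called against sham (background 0.683%) or against 24 h (background 0.384%), and 7 members in each comparison, all lower, had an unadjusted p under 0.05, against 12.6% and 11.5% of genes. The medians there were -1.51 against -0.45 and -0.78 against -0.16. Against sham the smallest p belonged to Atp6v1a (-4.10 ± 1.41, adjusted p = 0.222), Atp6ap1 (-5.41 ± 1.98, adjusted p = 0.251) and Ctsh (-4.57 ± 1.71, adjusted p = 0.263). Against 24 h it belonged to Ctsl (-5.17 ± 1.53, adjusted p = 0.147), Ctsh (-4.87 ± 1.53, adjusted p = 0.18) and Atp6v1b2 (-2.53 ± 0.83, adjusted p = 0.202). Without the arrays of low yield Ctsh turned to 1.08 and 0.78 in these comparisons. Without 9 day Intermediate replicate 9, 7 and 8 members were called in them, and 1 between 4 h and 24 h. Groups did not overlap at 4 h against sham in 1 member higher and 10 lower (background 9.82% and 12.6%), at 24 h against sham in 8 and 4 (background 10.7% and 14.2%), at 24 h against 4 h in 5 and 1 (background 6.65% and 7.3%), at 9 days against sham in 1 and 2 (background 7.18% and 15.7%), and at 9 days against 24 h in 0 and 2 (background 4.42% and 8.02%). The 10 members lower at 4 h than in sham and the 8 higher at 24 h are shares above the background, with no test. With arrays centred on their medians, which takes out a shift of -0.55 and -0.56, the member median turned from -0.30 to 0.24 at 4 h and from -0.17 to 0.39 at 24 h against sham, while at 9 days it stayed below 0 (-1.01). The comparisons share groups, so their values are not independent.

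In the High gate, 4 h minus sham had 33 members higher and 5 lower, and the median difference was 2.06, where all genes tested had 0.74. No member was called (background 0.432%), and 6, all higher, had an unadjusted p under 0.05, against 14.7% of genes. Groups did not overlap in 8 members higher and 1 lower (background 22.7% and 8.4%). Laptm5 and Ctsc are given above, and Atp6v1a followed (3.74 ± 1.41, adjusted p = 0.238). After centring, which takes out a shift of 0.91, 25 members lay higher and 13 lower. With sham High replicate 2 left out, which leaves the array of low yield alone in its group, 7 members were called, and without 9 day Intermediate replicate 8 or 9 there was 1. Between the gates at 4 h, High minus Intermediate had a median of 0.55 against 0.14, no member was called (background 0%), and 1 member, Glb1, had an unadjusted p under 0.05, against 5.99% of genes (at least 8.85-fold lower in High, adjusted p = 0.724). Hexa was next (2.78 ± 1.54, adjusted p = 0.923), ahead of Gusb, and groups did not overlap in 5 members higher and 0 lower in High (background 6.98% and 4.46%). Between the sham gates, Intermediate lay below Low in 31 of 38 members, with a median of -0.87 against -0.58. No member was called (background 0.0719%), and 0 had an unadjusted p under 0.05, against 9.06% of genes. After centring, which takes out a shift of -1.33, 24 members lay higher in Intermediate and 14 lower. In 16 members both sham Intermediate arrays lay below both sham Low arrays (background 28.7%), a share of 42.1%. The smallest p was that of Glb1 (at least 8.99-fold lower in Intermediate, adjusted p = 0.568), then Mcoln1 (2.77 ± 1.88, adjusted p = 0.785) and Gusb (-3.25 ± 2.27, adjusted p = 0.795), and without sham Intermediate replicate 2 these last differences were 0.03 and 0.00146. Other probe sets of Mcoln1 and Gusb, present on 7 and 14 arrays, gave 0.48 ± 1.13 and 0.15 ± 1.69. Whether the change from sham to 9 days differed between the Intermediate and Low gates was tested in the same fit: 0 genes passed, with 1 member (Npc1, -4.62 ± 1.86, adjusted p = 0.585) and 615 genes at an unadjusted p under 0.05.

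A list of 58 other lysosomal genes, of which 49 were tested, was set beside the members. In 9 day Low against 24 h Intermediate 4 of the 49 were called higher and 0 lower (background 4.3%). Slc29a3, a nucleoside transporter, lay at 9.00, 10.18 and 10.26 against 2.91, 3.05 and 3.38, all called absent (at least 104-fold, adjusted p = 0.00474), and Pla2g15, a lysosomal phospholipase, at 9.97, 9.99 and 9.38 against 6.57, 4.50 and 3.47 (4.93 ± 0.86, adjusted p = 0.00721). Dnase2a, the acid endonuclease that digests engulfed DNA, and Slc17a5, the sialic acid exporter, were the others (at least 14.2-fold and 12.7-fold, adjusted p = 0.0312 and 0.0382). The groups did not overlap for any of the 4. Slc29a3 and Pla2g15 were also called higher in 9 day Low than in 4 h High (4.97 ± 1.11 and 4.35 ± 0.86, adjusted p = 0.03 and 0.019) and lower in 9 day Intermediate than in 9 day Low (-5.18 ± 1.11 and -4.82 ± 0.86, adjusted p = 0.043 and 0.0215). Dnase2a fell in the Intermediate gate from 9.76 and 8.71 in sham to 4.25, 3.61 and 5.02 at 24 h (at least 30.8-fold, adjusted p = 0.0489) and was lower at 9 days too (at least 34.4-fold, adjusted p = 0.0344). The calls of Slc29a3 and Pla2g15 against 24 h Intermediate held whichever array was left out and were lost only with yield in the fit (adjusted p = 0.053 and 0.108). Each of the other 8 calls was lost under at least 2 of 9 or 10 alternatives and when at least 3 of the 21 arrays were left out in turn, with the largest adjusted p, 0.555, for Slc29a3 between the 9 day gates. No gene of this list was called in the other 7 comparisons, in which 1 to 10 of 49 had an unadjusted p under 0.05, against 5.99% to 14.7% of all genes tested. Over the list the median for 9 day Low minus 24 h Intermediate was 1.48, against 1.73 for the members and 0.65 for all genes.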

How the data were processed

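Affymetrix arrays measured RNA of CD11b+ kidney cells, amplified per the labels' protocols. The authors deposited log2 values made by RMA, per the submitters' processing notes, which also name Affymetrix Expression Console. The deposited signal intensities are linear, with a 2% trimmed mean of the same size on every array, and each probe set has a deposited detection call, present, marginal or absent. Of the 45101 probe sets the platform's gene table used here gave 34958 to 1 gene and 932 to several, and did not list 9211.

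Of 25 arrays 21 entered the model, in 8 groups taken from the labels, and 4 were left out. The second description line of 4 h High replicate 30 names 9 days, and its title's group was kept. For each gene the probe set of highest mean was used, and genes called present on at least 2 arrays of a group were tested. With limma 3.58.1 (R 4.3.3) the deposited log2 values of all 8341 genes were fitted with 1 mean per group, with Benjamini-Hochberg adjusted p under 0.05 as the call. The code was tested on simulated data. Differences are log2 values ± SE. Arrays with the same number at one time come from 1 animal per the labels. Their deviations from the group means correlated between -0.07 and 0.06, and the consensus correlation with animal as a block was -0.03.

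Named genes were the called members, or the 3 of smallest p where fewer than 3 were called, the 10 of smallest p in the F test, and Tfeb. To these came, for each role, the 2 members of highest mean and the 2 of largest range over groups. The alternatives were the deposited signals as log2(signal + 1), centring on the array median, other filters, the mean of a gene's probe sets, leaving out the arrays of low yield or each array in turn, yield as a covariate, animal as a block and array weights. The members and gene lists were chosen with earlier results of these data known, and the within-array difference, Ctsb, Ctss and Psap were chosen after seeing values.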

Additional observations from a re-analysis of the deposited data

Results flagged for a closer look

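The 3 sham 58 High arrays, which entered no comparison, carried member signal that the 2 sham High arrays did not. On them 10 members were called present on all 3 arrays and on neither sham High array. Of all genes tested 79.2%, 71.4% and 74.7% were called present on the sham 58 arrays, and 3.84% and 33.8% on the sham High arrays. The share of all genes that meet the same rule was not taken, so this count does not set the members apart. Ctsc lay at 10.10 to 11.40, Man2b1 at 9.73 to 10.74 and Atp6v1b2 at 8.82 to 10.21. Lgmn lay at 6.92 to 8.70, Glb1 at 6.91 to 7.69, Scarb2 at 6.57 to 7.52 and Neu1 at 5.84 to 7.39. Npc1 lay at 4.96 to 7.57, Gaa at 5.67 to 6.97 and Tfeb at 7.04 to 8.82. Ctsk was called present on 1 sham 58 array, at 2.99, and on none of the 21 arrays of the model. The sham 58 arrays had yields of 33.6%, 29.3% and 30.2%, against 1.99% and 12.9% in sham High, and 37, 34 and 38 of the 39 members with a probe set were called present. Their member means were 9.74, 9.09 and 9.46, and the members minus all genes tested gave 2.44 to 2.87, above the 14 usable sham, 4 h and 24 h arrays of the model, at 1.52 to 2.37, and below the 4 usable 9 day arrays, at 2.89 to 3.11. The correlations between these arrays over all genes tested were 0.707 to 0.764, and that between the sham High arrays was 0.329.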

How the results depend on the processing

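Of 121 counts of members called under other settings 104 stayed within 1.5 times. In the main fit the count was 1 in 9 day Low minus 24 h Intermediate and in the F test, and 0 in every other comparison. A count that stayed can thus be 0 both times or hold another member. With yield in the fit Ctsl took the place of Tpp1 in that comparison and of Atp6v1a in the F test. Array weights gave 19 members in 9 day Intermediate minus Low, 5 in 9 day minus sham and 1 in 24 h minus 4 h Intermediate, 8 in 9 day minus 24 h Intermediate, 4 and 2 in 9 day Low against 24 h Intermediate and 4 h High, and 13 in the F test. Centring gave 2 in 9 day minus 24 h Intermediate and 0 in 9 day Low minus 24 h Intermediate; yield as a covariate gave 1 in the former. No filter gave 0 in the latter and in the F test, as did the signals, the probe set means and the random block of animal in the F test. Without the arrays of low yield 4 and 1 members were called in 9 day Low against 24 h Intermediate and 4 h High. Leaving out single arrays gave 0 to 7 members in 4 h minus sham High and in 9 day minus sham Intermediate, 0 to 16 in 9 day Intermediate minus Low, 0 to 8 in 9 day minus 24 h Intermediate, 0 to 3 and 0 to 1 in 9 day Low against 24 h Intermediate and 4 h High, 0 to 1 in 24 h minus 4 h Intermediate, 0 to 13 in the F test, and 0 in the other 5. With animal as a fixed replicate block, which could be fitted only between gates of one time, 0 members were called, as without it, and the random block changed no call but that of the F test. The mean over members moved for sham High, Intermediate and Low, 4 h High and Intermediate, 24 h Intermediate, and 9 day Intermediate and Low, in this order, to 9.57, 10.49, 11.30, 10.21, 9.87, 10.13, 10.15 and 11.86 with the signals and to 1.94, 2.71, 2.28, 2.82, 2.70, 2.99, 1.78 and 3.04 after centring. Probe set means gave 7.24 and 8.07 in sham Intermediate and Low, 7.13 and 6.69 in 4 h High and Intermediate, 6.96 in 24 h Intermediate and 8.57 in 9 day Low. No filter gave 8.08 and 8.96 in sham Intermediate and Low, a present call on every array of a group 8.34 in sham Intermediate, yield as a covariate 8.11, 6.90, 8.29 and 7.68 in sham Intermediate, sham Low, 4 h Intermediate and 9 day Low, and the loss of the arrays of low yield 9.47 in 9 day Intermediate. With single arrays left out the means stayed between 4.73 and 9.77. Signs turned for Ctsh in 9 day minus sham (1.08) and minus 24 h (0.78) Intermediate without the arrays of low yield, for Ctsc in 4 h minus sham High (-0.43, probe set means) and for Gusb in sham Intermediate minus Low, which ran from -6.50 to 0.00146 with single arrays left out and was above 0 without sham Intermediate replicate 2. The cause of these changes was not tested. The gap of members minus all genes between the 4 usable 9 day arrays and the other 14 was 0.52, and 0.30 to 0.46 under the settings tried after seeing the data, except -1.71 with medians. The arrays of low yield, with 1 to 10 members present, limit what the sham High and 9 day Intermediate groups can show.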
